A study of Mus musculus with 3 samples.

Results

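The genes described here encode protocadherins and other cadherins apart from the E-, N- and P-cadherin genes, as expressed in F9 cells, a mouse embryonal carcinoma line. They were chosen by gene symbol alone: every symbol beginning with Pcdh, Cdh4 to Cdh29, Cdhr1 to Cdhr5, Fat1 to Fat4, Dchs1 and Dchs2, Celsr1 to Celsr3, the desmogleins (Dsg) and the desmocollins (Dsc). The rule found 72 genes on 126 probe sets, out of 18193 genes named on the array. Total RNA from undifferentiated F9 cells was hybridised to 3 Affymetrix Mouse Genome 430 2.0 arrays, labelled as replicates 1, 2 and 3. The cells grew on gelatin-coated plates in medium with 10% serum and were harvested at about 80% confluence. All arrays belong to 1 untreated group, so no comparison between conditions was possible, and the question these data can answer is which of the genes gave a signal above the arrays' background. The label "non-classical" covers only some of the genes: Cdh4 and Cdh15 are type I and most of Cdh5 to Cdh24 type II classical cadherins.

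Cadherins are membrane proteins that hold cells together through repeated extracellular domains stiffened by calcium. Classical cadherins bind catenins and through them actin, desmosomal cadherins bind plaque proteins and intermediate filaments, and the very large Fat, Dachsous and Celsr proteins take part in Hippo signalling and planar cell polarity. Protocadherins are the most numerous branch. The clustered alpha, beta and gamma genes lie in arrays and are best known for giving single neurons a surface identity, while the non-clustered genes stand alone and act in neural wiring and in the movement of embryonic tissues.

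Few of these genes gave a signal above background, and no measured protocadherin was among them. Of the 72 genes, 8 (11.1%) passed, against 51.1% of all 18078 named genes outside the background families. The 8 were Dsg2, Fat1, Cdh22, Cdh4, Cdh9, Celsr1, Celsr2 and Cdhr1. On the scale of log2 signal over the array threshold the median member stood at -1.93 and the median of all named genes at 0.72. Background here is a signal of 44.4, 46.0 and 43.1 on replicates 1, 2 and 3. This threshold is the 95th percentile of 129 probe sets whose genes are known mainly from sensory cells or hair (odorant, pheromone and taste receptors, keratin-associated proteins). A gene passed when limma's one-sided moderated test of log2 signal over that threshold had a Benjamini-Hochberg adjusted p under 0.05 over all probe sets. Of the 115 background genes 1 passed. Not passing does not mean absent, and fewer cells with a transcript cannot be told apart from less of it per cell. Signals depend on the probes, so medians and rankings over different probe sets describe signal only and do not measure amounts of transcript.

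**Figure D1:**
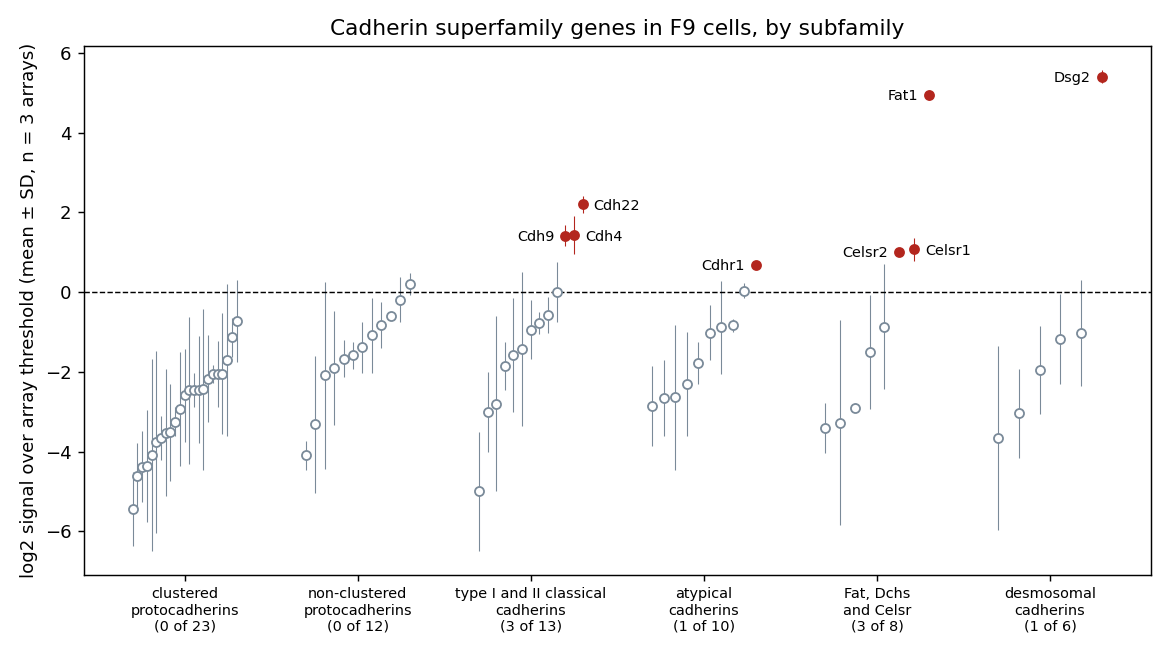
Each point is 1 gene, placed by its log2 signal over the array threshold (vertical axis, mean ± SD of 3 arrays) within its subfamily (horizontal axis); filled red points passed the test and the dashed line is the threshold. Every protocadherin is an open point, and Fat1 and Dsg2 lie at 4.95 and 5.41 log2 units.

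The 3 arrays were alike in scale, with median signals of 37.8, 37.8 and 36.0. Of 8 markers of F9 identity, 7 passed, among them Pou5f1 at 6809 ± 279, and Fut4, a fucosyltransferase gene, did not (15.1 ± 11.4; SD, n = 3). Markers of cells known for these cadherins were set beside the 51.1% of all named genes that passed, without a test. Those passing were 0 of 6 fibroblast, 0 of 7 endoderm, 1 of 6 neuron, 1 of 5 endothelial and 2 of 5 keratinocyte genes. They were Syt1 of neurons (70.8 ± 10.5), Pecam1 of endothelium (250 ± 38.3), and Krt10 (132 ± 16.2) and Lor (209 ± 88.3) of keratinocytes. Syt1 passed on 1 of its 4 probe sets and Lor on 1 of its 3, while Pecam1 and Krt10 have 1 each. By an unadjusted p under 0.05, 0 of the fibroblast and 2 of the endoderm markers passed.

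Among the clustered protocadherins 0 of 23 measured genes passed by limma (against 51.1% of all named genes, not tested). At an unadjusted limma p under 0.05, 0 passed as well. None of the 23 lay over the threshold on each of the 3 arrays, which 53.8% of all named genes did. The 22 beta genes, Pcdhb1 to Pcdhb22, were each measured, and the remaining gene was Pcdhgc4 of the gamma cluster. Their signals ran from 0.37 to 54.7 over 29 probe sets and 3 arrays. Only 1 gene rose over the threshold on any array, Pcdhb2, with signals of 54.7, 28.2 and 12.6 on replicates 1, 2 and 3. It was thus over on replicate 1 and under on the others. The next highest were Pcdhb5, with signals of 13.8, 24.3 and 25.0, and Pcdhb6, with 32.1, 27.5 and 2.88. Both stayed under the threshold on every array. The median clustered gene lay at -2.59 log2 units, beside -2.22 for the genes that define the background.

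The alpha cluster has no member by the rule, because its probe sets carry several symbols each. The 6 probe sets that name 9 to 14 alpha genes at once had signals between 1.36 and 51.3, and 0 passed (0 were over the threshold on all arrays). The highest of them stood at 26.6, 51.3 and 30.4 on replicates 1, 2 and 3, over the threshold on replicate 2 alone. In a RefSeq gene table (GRCm38.p6) 58 clustered genes match the rule. Of them 35, all of the alpha and most of the gamma cluster, have no single-symbol probe set and were not analysed singly here. The shared probe sets are all of the alpha cluster, so of the gamma cluster only Pcdhgc4 was read, by 1 probe set. In that table the beta genes follow each other without another protein-coding gene between them, so these 22 genes without a call form 1 uninterrupted stretch.

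The non-clustered protocadherins likewise had 0 of 12 genes above background by limma (against 51.1% of all named genes, not tested). At an unadjusted limma p under 0.05, 0 of them passed. All 12 genes of this kind in the gene table were measured, on 33 probe sets, and their median was -1.48 log2 units. Pcdh19, an X-linked gene whose loss in humans causes an epilepsy, came nearest, with signals of 58.2, 42.3 and 55.0 on replicates 1, 2 and 3. It was over the threshold on replicates 1 and 3 and under it on replicate 2 (0.21 log2 units, limma adjusted p = 0.358). A second probe set of Pcdh19 gave 42.6, 40.3 and 54.5 and another 27.1, 21.7 and 27.3, so none of its probe sets cleared the threshold throughout.

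Pcdh9, known from neurons, had signals of 59.6, 37.6 and 26.7, over the threshold on replicate 1 only. A second probe set gave 55.1, 42.6 and 24.3, and neither it nor the remaining one passed. Pcdh8, which in vertebrate embryos takes part in somite formation, stood at 30.4, 30.4 and 27.5, close together and under the threshold each time. Pcdh10, known from axon growth, was read by 6 probe sets whose mean signals ran from 4.24 to 26.4. The other non-clustered genes, Pcdh1, Pcdh7, Pcdh11x, Pcdh12, Pcdh15, Pcdh17, Pcdh18 and Pcdh20, had mean signals between 2.67 and 24.4.

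Promoter windows of 300 bases were found in RefSeq's GRCm38.p6 table for 31 of the 72 genes (34 windows), none of them clustered. To show what such windows look like, the 250 bases before the start are printed for Pcdh8, Pcdh10 and Cdhr1. Pcdh8 and Pcdh10 are non-clustered protocadherins without a call whose windows lie outside the gene. Pcdh17 and Pcdh20 are further such genes and are not printed. Their whole windows hold 26 and 4 CG dinucleotides, beside 14, 24 and 9 in those of Pcdh8, Pcdh10 and Cdhr1. Of the 5 genes above background with a window, Cdhr1 is the only 1 whose annotated start is also the gene's outermost start. CG dinucleotides are in capitals. The windows are chr14:79771313-79771562 (minus strand) for Pcdh8, chr3:45378148-45378397 (plus strand) for Pcdh10 and chr14:37098348-37098597 (minus strand) for Cdhr1.
Pcdh8: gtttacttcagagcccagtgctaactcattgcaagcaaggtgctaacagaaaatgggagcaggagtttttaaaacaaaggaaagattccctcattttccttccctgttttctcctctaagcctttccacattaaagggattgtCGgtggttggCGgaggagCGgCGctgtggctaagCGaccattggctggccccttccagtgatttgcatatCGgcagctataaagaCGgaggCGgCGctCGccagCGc
Pcdh10: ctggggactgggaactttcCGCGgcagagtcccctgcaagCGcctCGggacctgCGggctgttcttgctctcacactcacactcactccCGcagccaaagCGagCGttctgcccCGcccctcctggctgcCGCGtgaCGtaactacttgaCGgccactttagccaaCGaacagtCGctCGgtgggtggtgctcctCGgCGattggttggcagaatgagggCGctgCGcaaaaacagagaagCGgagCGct
Cdhr1: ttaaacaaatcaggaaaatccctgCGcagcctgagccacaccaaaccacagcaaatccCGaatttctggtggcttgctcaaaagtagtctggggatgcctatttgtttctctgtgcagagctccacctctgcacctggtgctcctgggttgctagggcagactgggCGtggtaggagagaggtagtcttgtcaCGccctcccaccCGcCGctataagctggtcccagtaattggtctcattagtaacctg

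These stretches hold 11 CG dinucleotides in Pcdh8, 22 in Pcdh10 and 6 in Cdhr1. Over whole windows, the 10 of non-clustered protocadherins had a median of 18 CG dinucleotides. The median was 11.5 over the 34 windows of all members and 7 over all 32851 windows in the table. The 10 windows of non-clustered protocadherins come from 9 genes, since Pcdh9 has overlapping ones that share most of their bases. The letters GGGCGG, a GC box, occurred on either strand in 4 of the 10 and in 35.7% of all windows. TATAAA occurred in 2 of the 10 (Pcdh8 and Pcdh15) and in 13.6% of all, and CACGTG in 0 of the 10 and in 7.15% of all. Among the members with a window, the 5 above background had 2 to 40 CG dinucleotides and the 29 windows of the others 2 to 35, so the ranges overlapped. The start of 25 of the 34 windows lies inside the gene's outermost start, by 9 bases (Cdhr5) to 725590 bases (Pcdh15), with Fat1 at 17108. Where the distance is large, this limits what the window says about the promoter in use. These 25 windows had a median of 13 CG dinucleotides and the 9 others a median of 7.

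**Figure D2:**
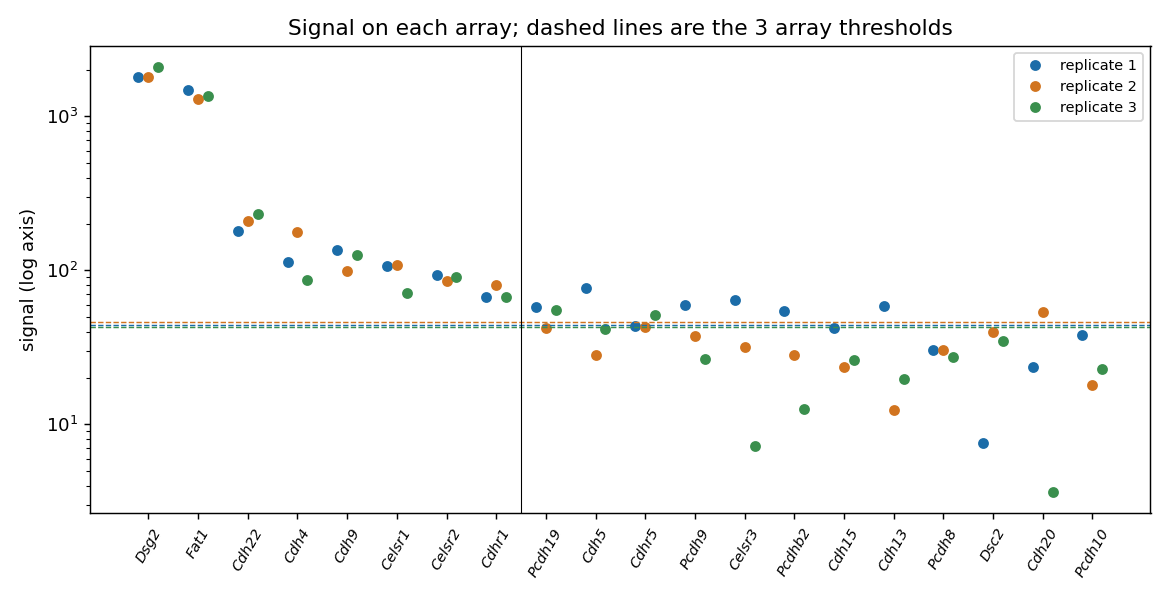
Signal on each array (vertical log axis) for the 8 genes above background, left of the vertical line, and the 12 highest of the others, right of it; colours are replicates and dashed lines their thresholds. The 8 genes lie over the lines on every array, while Pcdh19, Cdh5, Cdhr5, Pcdh9, Celsr3, Pcdhb2, Cdh13 and Cdh20 cross them.

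The desmosomal cadherins, which join neighbouring cells at desmosomes, had 1 of 6 genes above background (16.7%, against 51.1% of all named genes, not tested). Dsg2, the desmoglein found most widely outside stratified epithelia, had signals of 1802, 1796 and 2088 on replicates 1, 2 and 3. Its mean of 1895 ± 167 (SD, n = 3) lay 5.41 log2 units over the threshold (limma adjusted p = 0.000113). All 6 of its probe sets passed, with mean signals of 1895, 967, 377, 197, 102 and 71.5. Of all single-symbol probe sets outside the background families, 45.3% passed.

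The desmocollins are the partners of desmogleins in the desmosome. Dsc2 had signals of 7.59, 39.8 and 34.9, Dsc3 of 20.4, 9.19 and 40.7, and Dsc1 of 4.91, 22.3 and 13.9 on replicates 1, 2 and 3. None of the 3 exceeded the threshold on any array. Dsg1a and Dsg1b, skin desmogleins, had means of 6.60 and 6.11. In the gene table these genes form a run of 9 neighbours, in the order Dsc3, Dsc2, Dsc1, Dsg1c, Dsg1a, Dsg1b, Dsg4, Dsg3 and Dsg2. The gene at the end of the run was the only 1 above background among the 6 measured, and Dsg1c, Dsg4 and Dsg3 were not analysed here.

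Of the plaque genes that anchor desmosomal cadherins 6 of 9 were above background (66.7%, against 51.1% of all named genes, a difference that was not tested in a list this short). Dsp, desmoplakin, stood at 364 ± 32.0, Jup, plakoglobin, at 702 ± 126, and the plakophilin genes Pkp2 and Pkp3 at 368 ± 41.5 and 89.5 ± 13.2. Pkp1, a plakophilin of stratified epithelia, was not above background at 8.15 ± 5.80, nor were Evpl (68.7 ± 15.5, limma adjusted p = 0.0591) and Ppl (46.2 ± 2.73). Pkp3 lost its call at the 99th percentile (limma adjusted p = 0.0521). With the median over probe sets Pkp2 and Pkp3 both lost theirs, at 0.61 and -0.88 log2 units.

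Of the Fat, Dachsous and Celsr genes 3 of 8 were above background (37.5%, against 51.1% of all named genes, not tested). Fat1, a giant cadherin that shapes the actin cytoskeleton and feeds into Hippo signalling, had signals of 1480, 1300 and 1362. Its mean of 1381 ± 91.7 lay 4.95 log2 units over the threshold (limma adjusted p = 0.000113), from a single probe set. Its relatives Fat2, Fat3 and Fat4 had means of 4.54, 20.7 and 9.03 and stayed under the threshold on all arrays. Dchs1, in mammals the ligand of Fat4, gave 5.67, 5.99 and 6.31, so neither gene of that pair was above background.

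Celsr proteins are cadherins with a receptor-like membrane domain that organise planar cell polarity. Celsr1 had signals of 107, 108 and 71.7 (1.07 log2 units, limma adjusted p = 0.00931), and replicate 3 was the lowest. It did not pass when replicate 1 or replicate 2 was left out (limma adjusted p of 0.055 and 0.0568). Celsr2 had signals of 93.2, 85.8 and 90.9 on 1 of its 2 probe sets (1.01 log2 units, limma adjusted p = 0.0035), close together and each over the threshold. Its other probe set gave 55.4, 37.2 and 39.1 and did not pass, and at the 99th percentile the gene lost its call (limma adjusted p = 0.0584). Celsr3, known from axon tracts, spread widely, with 63.9, 31.8 and 7.26, and was over the threshold on replicate 1 alone.

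Partners of these large cadherins were above background in 11 of 15 measured cases (73.3%, against 51.1% of all named genes, not tested). Fjx1, related to the kinase that modifies Fat and Dachsous in Drosophila, stood at 113 ± 15.9, and the polarity genes Vangl1, Vangl2 and Fzd3 at 582 ± 44.1, 280.2 ± 35.0 and 108 ± 15.1. Not above background were Prickle1 (28.6 ± 12.5), Prickle2 (45.7 ± 13.1), Dvl3 (2.72 ± 0.861) and Invs (62.8 ± 16.1). Dvl3 was read by a single probe set. With the median over its 6 probe sets Fzd3 lay below the threshold, at -0.53 log2 units.

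Classical cadherins within the rule had 3 of 13 genes above background (23.1%, against 51.1% of all named genes, not tested). Cdh22, a type II cadherin described in brain and pituitary, had signals of 179, 208 and 231, all well over the threshold. Its mean of 206 ± 26.1 lay 2.20 log2 units over it (limma adjusted p = 0.000728). Cdh9, a type II cadherin known from hippocampal synapses, had signals of 135, 99.3 and 126 (1.42 log2 units, limma adjusted p = 0.00362).

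Cdh4, R-cadherin, a type I cadherin first known from retina, varied more: 113, 177 and 86.7 on replicates 1, 2 and 3. It lay 1.43 log2 units over the threshold (limma adjusted p = 0.0108) and did not pass when replicate 1 was left out (limma adjusted p = 0.0535). A second probe set gave 69.9, 84.1 and 61.9 and passed, and another gave 4.03, 13.8 and 6.80 and did not. Replicate 2 was the highest on all 3 probe sets.

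Cdh5, VE-cadherin of endothelium, illustrates a value that rests on 1 array. Its signals were 76.6, 28.0 and 41.3, over the threshold on replicate 1 only, and its mean log2 value was 0.0028 (limma adjusted p = 1). Cdh15, the muscle cadherin, gave 42.1, 23.8 and 26.3. Cdh20 gave 23.4, 53.5 and 3.65, over the threshold on replicate 2 alone. The other 7 genes, Cdh6, Cdh7, Cdh8, Cdh10, Cdh11, Cdh18 and Cdh19, had mean signals between 2.05 and 26.3. Cdh11 is typical of mesenchyme, and its 2 probe sets gave means of 13.1 and 9.08. Cdh9 is flanked in the gene table by Cdh6 and Cdh10, both not above background.

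Among the type I cadherins that the rule leaves out, Cdh1, E-cadherin, had a signal of 1727 ± 119 and passed, as did Cdh3 (95.9 ± 18.8), while Cdh2, N-cadherin, did not (57.7 ± 15.0). The catenin list, which serves all classical cadherins, had 5 of 8 genes above background (62.5%, against 51.1% of all named genes, not tested). Ctnna1 stood at 5664 ± 101, Ctnnb1, beta-catenin, at 7808 ± 138, Ctnnd1, p120-catenin, at 469 ± 71.2 and Jup as given above. The alpha-catenin genes Ctnna2 of neurons (25.3 ± 12.7) and Ctnna3 of heart (5.56 ± 2.79), and the neural Ctnnd2 (32.4 ± 10.2), were not above background.

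**Figure D3:**
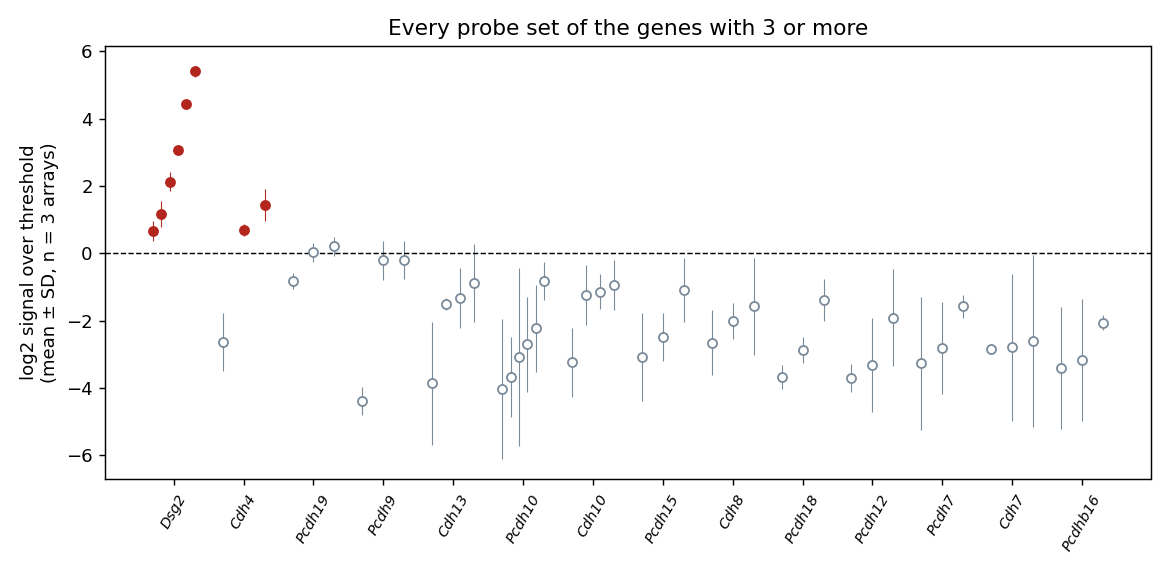
Every probe set of the genes with 3 or more is a point at its log2 signal over the threshold (vertical axis, mean ± SD of 3 arrays), by gene (horizontal axis); filled red points passed. All 6 probe sets of Dsg2 passed, 2 of 3 did for Cdh4, and none did for Pcdh10.

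The atypical cadherins had 1 of 10 genes above background (10%, against 51.1% of all named genes, not tested). Cdhr1, the photoreceptor cadherin that is needed for outer segment discs, had signals of 67.6, 80.5 and 67.2, over the threshold on each array by a small margin (0.68 log2 units, limma adjusted p = 0.0111). The call was lost without replicate 1, 2 or 3 (limma adjusted p of 0.0593, 0.0647 and 0.0532) and at the 99th percentile (0.329), and it rests on a single probe set. Cdhr5, a cadherin of intestinal microvilli, gave 43.4, 43.2 and 51.4, over the threshold on replicate 3 alone. Its microvillar partner Cdhr2 had a mean of 7.32.

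Cdh13, T-cadherin, which is anchored by a lipid and lacks a cytoplasmic tail, had signals of 58.4, 12.3 and 19.7. It was over the threshold on replicate 1 alone, and its other 3 probe sets had means from 5.37 to 20.5. Cdh23, which with Pcdh15 forms the tip link of inner ear hair cells, stood at 26.8, 22.7 and 25.9, and Pcdh15 had a mean of 24.4 ± 16.8. Both stayed under the threshold on all arrays. The other 5, Cdh26, Cdhr3, Cdh17, Cdh16 and Cdhr4, had means from 23.7 to 8.39. Of 6 measured cytoplasmic partners of the Usher and microvillar cadherins 1 was above background (16.7%, against 51.1% of all named genes, not tested). That was Whrn, whirlin (78.0 ± 9.63), which did not pass when replicate 2 or replicate 3 was left out (limma adjusted p of 0.0594 and 0.0573) or at the 99th percentile (0.217). Ush1c (17.3 ± 11.0), Myo7a (7.94 ± 5.29), Myo7b (25.8 ± 14.4), Anks4b (25.6 ± 5.55) and Myo15 (64.1 ± 15.9) were not above background.

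Of 10 measured genes that act with protocadherins inside the cell 7 passed (70%, against 51.1% of all named genes, again not tested). They included the kinase Fyn (384 ± 57.2) and the WAVE complex genes Wasf1 (890.0 ± 26.1), Nckap1 (2348 ± 180) and Abi1 (1145 ± 83.9), which non-clustered protocadherins can recruit to steer actin. The kinases Ptk2b (34.1 ± 3.22), Ret (51.9 ± 14.1) and Taok2 (69.7 ± 29.4) did not pass, though Taok2 did without replicate 1 (limma adjusted p = 0.0419). The list of regulators of clustered protocadherin promoters was above background in 13 of 13 cases (100%, against 51.1% of all named genes, not tested). It holds the insulator protein gene Ctcf (1657 ± 228), the cohesin genes Rad21 (4932 ± 213), Smc1a (3008 ± 138) and Smc3 (2004 ± 84.2), and genes of repression such as Smchd1, Dnmt3b and Setdb1. These proteins act on many other genes too.

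**Figure D4:**
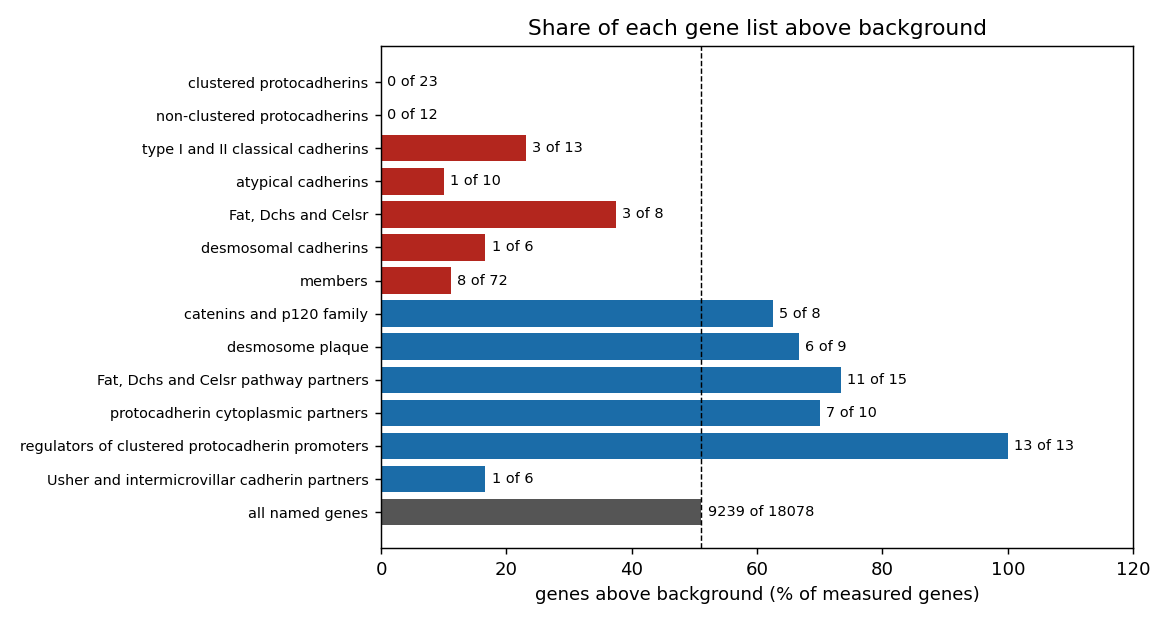
Bars give the percentage of measured genes above background (horizontal axis, from 0) for the cadherin subfamilies and all members in red, lists of partner genes in blue and all named genes in grey; the dashed line marks 51.1%. Each cadherin subfamily lies below the line, and 5 of the 6 partner lists lie above it.

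The SD of log2 signal over the arrays had a median of 0.19 for the 8 members above background (range 0.10 for Celsr2 to 0.47 for Cdh4), beside 0.13 over all 9239 named genes above background. The test itself favours genes with a small SD, so these spreads are no independent check. For the 64 members not above background the median SD was 1.02, so the order of signals among them carries little information. Across the processing settings, the number of members called ran from 5 to 10 of 72, while the share of all named genes ran from 43.7% to 59.3%. Dsg2, Fat1, Cdh22 and Cdh9 were called under each of the 16 settings, and no clustered protocadherin was called under any.

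**Figure D5:**
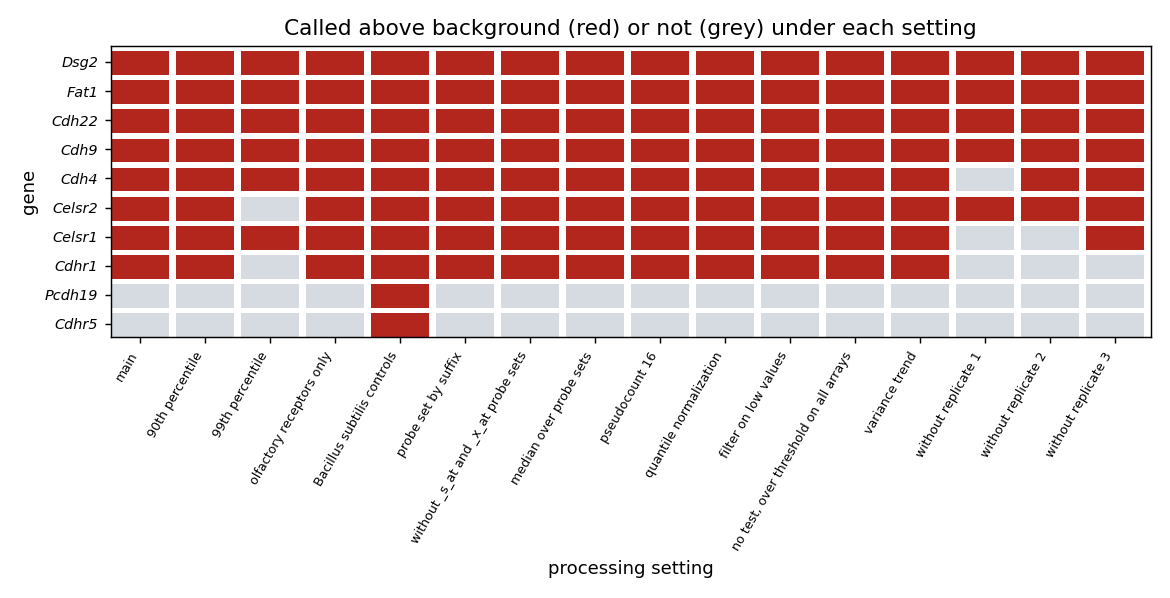
Rows are the 8 genes above background and the 2 others that were called under any setting, columns are the 16 processing settings, and red marks a call. Pcdh19 and Cdhr5 are red in 1 column, the lower threshold from bacterial controls.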

How the data were processed

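Each array's deposited column holds linear intensities (signals) for 45101 probe sets, of which 64 are controls. The authors used GCOS 1.4, per the submitters' processing notes; which signal algorithm they chose, and whether a scaling target was set, is not stated in those notes. The deposited intensities have a mean of 250.0 on each array after trimming 2% at each end, so the arrays had been scaled, and no further normalization was applied. Symbols came from a 2016 platform annotation. Leaving controls out, 34945 probe sets named 1 symbol, 932 several and 9160 none; 0 symbols changed with the GRCm38.p6 gene table. A gene was represented by its probe set with the highest mean signal, which favours calls for genes with many probe sets.

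Log2 signal minus log2 threshold was modelled by an intercept alone using limma 3.58.1 (R 4.3.3; lmFit, eBayes), and p-values were adjusted over all probe sets other than controls. The calls were tested on simulated data. Whether the replicates are separate cultures is not in the labels; p-values therefore reflect the spread of 3 arrays, possibly a technical one, and the number of arrays limits the precision. Members, partner lists, marker lists and the naming rule were chosen with earlier results of these data known. All members above background, those with probe sets on both sides of the call and the 3 highest others per subfamily were named, with up to 4 passing genes and all not passing per partner list; other names were chosen after their values were seen. Alternatives changed the threshold, the background set, the probe set, the pseudocount, normalization, filter, test, variance model and replicates.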

Additional observations from a re-analysis of the deposited data

How the results depend on the processing

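The number of members above background was 8 under 10 of the 15 alternatives and differed by more than 1.5 times only without replicate 1. Leaving out 1 replicate gave 5 to 7 members, all outside the protocadherins, 0 of 23 clustered and 0 of 12 non-clustered protocadherins, 0 being the count in every such fit. Fewest were called without replicate 1: 5 members, and 5 of the 37 genes outside the protocadherins. Cdh4, Celsr1 and Cdhr1 lost their calls there, at limma adjusted p of 0.0535, 0.055 and 0.0593. Of these Celsr1 fell to 0.98 log2 units, while Cdh4 and Cdhr1 rose to 1.47 and 0.72. Cdhr1 was also lost without replicate 2 or 3, and Celsr1 without replicate 2. The share of all named genes called was 48.2%, 48.5% and 48.6% without replicates 1, 2 and 3. Why the member count was lowest without replicate 1 was not tested. The lower threshold from 27 Bacillus subtilis controls, chosen after seeing the data, called 1 non-clustered protocadherin, Pcdh19 (1.18 log2 units, limma adjusted p = 0.0138), and Cdhr5. The planned set of all bacterial and phage controls was not run, because those added at hybridisation carry signal. A variance trend, also chosen after seeing the data, called 8 members. No paired analysis was possible because there is 1 group.

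Some members crossed the threshold without a call, given here in log2 units. The Bacillus threshold lies lower by the same step for every gene and so moved others across too (Cdh6, Cdh10 and Pcdh10, not called). Those followed under each setting were Cdh13 (0.098), Cdh15 (0.39), Cdh23 (0.15), Celsr3 (0.11), Pcdh8 (0.38), Pcdh9 (0.79) and Pcdhb2 (0.25). At the 99th percentile they were Cdh5 (-0.38), Cdhr5 (-0.34) and Pcdh19 (-0.18), and at the 90th Pcdh9 (0.15). Cdh5 lay at -0.50 with the median over probe sets. Leaving out 1 replicate gave -0.39 to 0.36 for Cdh5, -0.065 to 0.11 for Cdhr5 and -0.47 to 0.098 for Pcdh9.

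Partner genes changed side too. With the Bacillus controls Anks4b (0.15), Ctnna2 (0.024), Ctnnd2 (0.47), Prickle1 (0.22) and Ptk2b (0.59) lay above the threshold. At the 99th percentile Ppl (-0.33), Prickle2 (-0.38) and Ret (-0.19) lay below. The median over probe sets put Fzd3 (-0.53), Invs (-3.23), Pkp3 (-0.88), Ret (-0.75) and Taok2 (-1.61) below, and the probe set chosen by suffix put Abi1 (-0.54) below. Leaving out 1 replicate gave -0.22 to 0.12 for Prickle2 and -0.025 to 0.35 for Ret. Evpl (0.94) and Myo15 (0.83) gained a call at the 90th percentile, and Pkp2 (0.61) and Whrn (0.20) lost theirs with the median over probe sets. The cause was not tested in any of these cases. Signals near background limit what these arrays show, since members not above it varied most.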
